A study of Mus musculus with 12 samples.

Results

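Naive CD8 T cells of IkarosZn4-/- mice, which are homozygous for the mutant Ikaros allele, were compared with wild-type cells after 12 h of stimulation, in 4 of the series' 12 libraries: 2 of wild-type cells (WT) and 2 of mutant cells (Zn4). The members are the libraries that the submitters' column names give as WT or dZn4 at 12 h, and every gene of the deposited expression table was examined in them. Per the labels, CD8-positive cells of naive surface phenotype, low or negative for CD44, were taken from spleens of 6-week-old C57Bl/6 mice given as female. They were cultured on bound anti-CD3 and anti-CD28 antibodies, which engage the T cell receptor and its costimulatory receptor. The other groups are cells of the same genotypes used directly (0 h) or after 24 h, also with 2 libraries each. They entered the statistical fit, where they help to estimate the spread. The labels give no agent that differs between the genotypes and leave unsaid if replicates came from separate animals, so p-values measure only the spread between these samples, which may be technical in part. The WT libraries of 12 h differed in sex-linked transcripts, as given next.

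Ikaros, encoded by Ikzf1, is a DNA-binding zinc finger protein of lymphocytes. It recruits chromatin complexes, among them the nucleosome remodelling and deacetylase complex NuRD, and it can keep genes silent. Its N-terminal zinc fingers read DNA with a GGGAA core, and the Zn4 mutant lacks the fourth of them while it keeps the others. Naive CD8 T cells that meet antigen grow, leave the quiescent state and become killer cells that secrete interferon gamma and chemokines. In T cells, Ikaros is known for restraining cytokine genes and for setting the strength of stimulation that a cell requires.

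Library depth was even, with 24290660 to 33389808 reads behind the 4 libraries of 12 h and 82.5% to 83.7% of them in listed genes. The unit is RPKM, reads scaled by gene length and library size, and 3 reads in a gene of 2 kb equal 0.0449 to 0.0618 RPKM, which covers counting error only. Libraries of the same genotype correlated at r = 0.992 (WT) and 0.993 (Zn4) across genes. The labelled sex did not match the transcripts in 3 of the 4 libraries. Ddx3y, Eif2s3y, Kdm5d and Uty, which lie on the Y chromosome, summed to 38.9 RPKM in WT replicate 1, 0.00198 RPKM in WT replicate 2, 43.4 RPKM in Zn4 replicate 1 and 21.0 RPKM in Zn4 replicate 2. Xist, which coats and silences an X chromosome where there is a pair, read 0.0023, 52.6, 0.0258 and 24.3 RPKM in the same order. WT replicate 1 and Zn4 replicate 1 therefore carried Y-linked RNA and almost no Xist, WT replicate 2 the reverse, and Zn4 replicate 2 a mixture. In the libraries of 0 h and 24 h the Y-linked sum was at most 0.0209 RPKM. Counts with the Y-linked level in the fit and from the replicate 1 libraries alone are given below. They do not measure the part of these differences in the genotype comparison, because both fits are less precise. The median SE of called genes was 1.17 and 1.49 times that of the fit used for the calls. Ikzf1 itself was at 128 and 125 RPKM in WT and 114 and 124 RPKM in Zn4, and was not called (adjusted p = 0.681). A value for the whole gene cannot show the missing zinc finger, so it does not check the genotype.

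At 12 h, Zn4 cells carried far more RNA of a small set of secreted factors than WT cells, and less RNA of many genes of the actin cortex, the T cell receptor machinery and the interferon response. Of 12726 tested genes, 1671 were called (13.1% of those tested; limma, Benjamini-Hochberg adjusted p under 0.05), 617 of them higher (4.85%) and 1054 lower (8.28%) in Zn4. The rises were the larger changes: 475 genes (3.73%) were called with a difference of at least 2-fold, 240 higher and 235 lower, but of the called genes with at least a 4-fold difference 57 were higher and 11 lower, and all 17 with at least an 8-fold difference were higher. These folds are on the log2(RPKM + 1) scale, which understates the change of genes near or under 1 RPKM. Genes called higher had a median WT level of 3.36 RPKM and genes called lower one of 10 RPKM, against 7.25 RPKM over all tested genes. The WT and Zn4 libraries did not overlap in any of the 1671 called genes. Over all tested genes the same held for 8041 (63.2%). The median difference of all genes was -0.01.

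**Figure D1:**
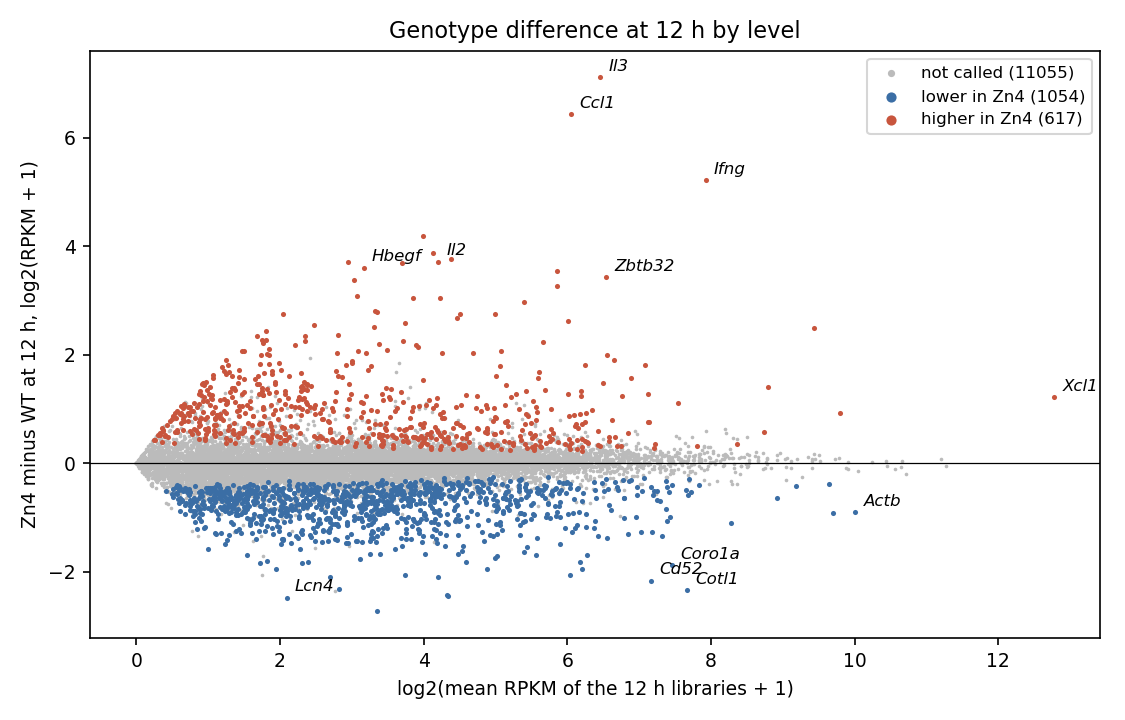
Genotype difference at 12 h (Zn4 minus WT, log2(RPKM + 1)) against the log2 of the mean RPKM of the 4 libraries plus 1, with 1 point per tested gene. Red points are the 617 genes called higher, blue points the 1054 called lower and grey points the rest; Il3, Ccl1 and Ifng stand highest, and Cotl1 is among the lowest of the abundant genes.

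The strongest differences were in cytokines that T cells release. Il3, a growth factor for mast cells and blood progenitors, was almost silent in WT cells, at 0.131 and 0.333 RPKM, which rest on 2 and 7 reads, and stood at 135 and 212 RPKM in Zn4 cells, from 2383 and 3678 reads. This was the largest difference of all genes (log2 difference 7.11 ± 0.20, SE, adjusted p = 3.5e-07). Ifng, the interferon that arms macrophages and marks killer T cells, was at 13.4 and 9.7 RPKM in WT and 375 and 569.5 RPKM in Zn4, a 40.9-fold difference of the means (log2 difference 5.22 ± 0.20, SE, adjusted p = 1.13e-06). Unlike Il3, it rested on 392 and 391 reads in the WT libraries, and the groups lie far apart. Il2, the main growth factor of T cells, was at 1.08 and 2.2 RPKM in WT and 35.9 and 30.3 RPKM in Zn4 (log2 difference 3.72 ± 0.20, SE, adjusted p = 1.32e-05). Lta, a cytokine that organizes lymphoid tissue, was at 54 and 63.6 RPKM in WT and 176 and 176 RPKM in Zn4 (1.57 ± 0.13, adjusted p = 0.000137), and the groups lie well apart. Csf2, which encodes GM-CSF and neighbours Il3 on chromosome 11, was low in both genotypes, at 0.257 and 1.27 RPKM in WT and 3.51 and 5.77 RPKM in Zn4 from 5, 34, 79 and 127 reads (1.71 ± 0.28, adjusted p = 0.00384). WT replicate 2 lies above WT replicate 1 and below both Zn4 libraries.

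In the list of secreted cytokines, 6 of 13 tested members were called higher and 1 lower, against 4.85% and 8.28% of all tested genes. The median difference was 0.40 against -0.01 for all genes. The other rise was Lif, a cytokine of the interleukin-6 family, at 2.4 and 1.02 RPKM in WT and 3.5 and 5.2 RPKM in Zn4 (1.01 ± 0.24, adjusted p = 0.0243). It was not called without WT replicate 2 (adjusted p = 0.162) or Zn4 replicate 2 (0.157). The fall was Il16, a chemoattractant for CD4 cells, at 3.95 and 5.15 RPKM in WT and 1.15 and 1.53 RPKM in Zn4 (-1.24 ± 0.14, adjusted p = 0.000473). Tnf, Ltb, Csf1, Osm, Tgfb1 and Mif did not pass the test.

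Chemokine genes showed the same direction. Ccl1, which attracts cells with the receptor CCR8, went from 0.695 and 0.24 RPKM in WT, resting on 40 and 19 reads, to 94.3 and 165 RPKM in Zn4 (log2 difference 6.44 ± 0.42, SE, adjusted p = 3.29e-05). Xcl1, which draws cross-presenting dendritic cells to CD8 T cells, was already at 3995 and 4436 RPKM in WT and at 9674 and 9962 RPKM in Zn4 (log2 difference 1.22 ± 0.18, SE, adjusted p = 0.00226), 2.33-fold higher. It is thus abundant in both genotypes, while Ccl1 was close to absent from WT cells. Ccl3, an inflammatory chemokine, was at 121 and 337 RPKM in WT and 989 and 1309.8 RPKM in Zn4 (2.49 ± 0.38, adjusted p = 0.00263). Ccl9 was at 9.79 and 25.3 RPKM in WT and 59.9 and 104 RPKM in Zn4 (2.25 ± 0.36, adjusted p = 0.00355). For both, WT replicate 2 lies well above WT replicate 1 and still below either Zn4 library. Ccl4, a related chemokine, was at 468 and 778 RPKM in WT and 1041 and 1259 RPKM in Zn4 (0.92 ± 0.24, adjusted p = 0.031) and was not called without WT replicate 1 (adjusted p = 0.177), Zn4 replicate 1 (0.087) or Zn4 replicate 2 (0.17). In all, 5 of 8 tested chemokines were called higher and 1 lower (median 1.07), against 4.85% and 8.28% of all tested genes. The fall was Cxcl10, which interferon gamma induces in many cells, at 2.14 and 2.8 RPKM in WT and 0.819 and 1.39 RPKM in Zn4 (-0.73 ± 0.18, adjusted p = 0.0247), not called without WT replicate 2 (adjusted p = 0.18) or Zn4 replicate 1 (0.195). Xcl1 holds the top level of all genes in the stimulated libraries, so under quantile normalization its difference is 0 by construction.

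**Figure D2:**
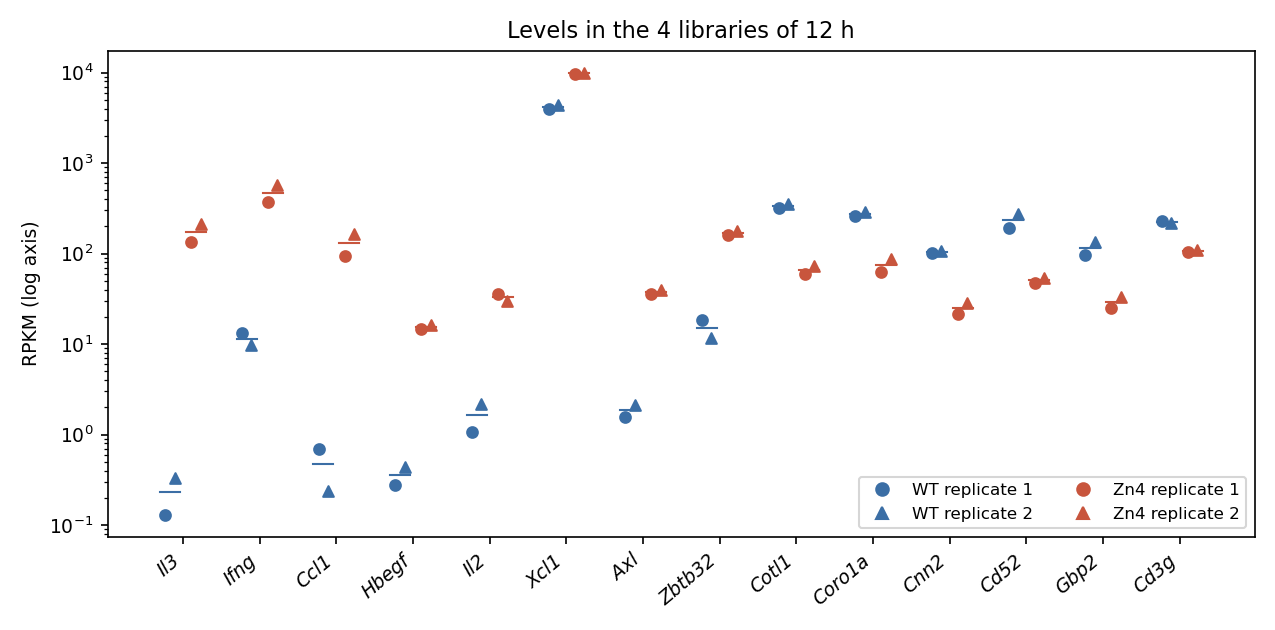
RPKM (log axis) of 14 genes in the 4 libraries of 12 h, WT in blue and Zn4 in red, replicate 1 as circles and replicate 2 as triangles, with a short line at each group mean. The first 8 genes lie higher in both Zn4 libraries and the last 6 lower; Il3 and Ccl1 are below 1 RPKM in WT and at 94.3 RPKM or more in Zn4.

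The sequences upstream of the 3 secreted-factor genes most raised at 12 h are shown because Ikaros reads GGGAA. That of Cnn2, a fall described with the actin genes, is shown beside them. Each is the 250 bases before the RefSeq start (GRCm38.p6; 8082 tested genes have such a window), 5′ to 3′ on the gene's strand, with GGGAA or its reverse complement TTCCC in capitals. The Il3 window lies at chr11:54267280-54267529, minus strand, the Ifng window at chr10:118440796-118441045, plus strand, the Ccl1 window at chr11:82179813-82180062, minus strand and the Cnn2 window at chr10:79988350-79988599, plus strand.
Il3: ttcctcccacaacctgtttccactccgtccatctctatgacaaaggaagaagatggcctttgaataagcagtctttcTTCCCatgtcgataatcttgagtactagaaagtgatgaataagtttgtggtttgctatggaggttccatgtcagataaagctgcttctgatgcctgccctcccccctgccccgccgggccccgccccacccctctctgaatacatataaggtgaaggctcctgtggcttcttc
Ifng: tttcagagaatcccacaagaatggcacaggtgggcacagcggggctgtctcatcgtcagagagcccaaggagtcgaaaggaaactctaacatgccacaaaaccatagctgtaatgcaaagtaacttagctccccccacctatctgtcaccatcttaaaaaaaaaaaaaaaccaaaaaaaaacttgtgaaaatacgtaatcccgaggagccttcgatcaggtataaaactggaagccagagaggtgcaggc
Ccl1: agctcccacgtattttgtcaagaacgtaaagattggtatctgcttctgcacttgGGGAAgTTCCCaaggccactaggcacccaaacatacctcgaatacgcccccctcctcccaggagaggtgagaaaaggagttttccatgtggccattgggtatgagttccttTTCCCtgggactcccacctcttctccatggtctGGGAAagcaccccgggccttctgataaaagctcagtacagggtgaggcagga
Cnn2: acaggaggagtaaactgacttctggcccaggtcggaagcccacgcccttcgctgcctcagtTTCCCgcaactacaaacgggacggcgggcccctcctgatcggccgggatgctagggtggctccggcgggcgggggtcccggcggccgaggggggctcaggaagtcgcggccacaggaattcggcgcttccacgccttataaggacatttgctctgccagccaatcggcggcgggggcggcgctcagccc
The windows hold 1 match (Il3), 0 matches (Ifng), 4 matches (Ccl1) and 1 match (Cnn2) on either strand. Such a match is common: 55.9% of 27025 windows of this length hold at least 1, and so do 58.2% of the windows of tested genes. The share is 60% of the 430 windows of genes called higher and 57% of the 733 windows of genes called lower. A match is a run of letters and not a site of binding, and Ifng shows a large difference with none in this window. The AP-1 motif TGANTCA, searched on both strands, occurs in none of these 4 windows and in 6.87% of all windows, 3.96% of those of tested genes, 6.98% for genes called higher and 4.77% for genes called lower. Genes called higher thus held it more often than tested genes as a whole, a difference that was not tested.

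Among growth factors and members of the TNF family, a few genes differed strongly. Hbegf, a ligand of the EGF receptor, was at 0.278 and 0.442 RPKM in WT (16 and 35 reads) and 14.8 and 16.4 RPKM in Zn4 (log2 difference 3.61 ± 0.13, SE, adjusted p = 7.36e-07). Inhba, the activin A subunit, was at 0.0208 and 0.0756 RPKM in WT and 2.23 and 2.04 RPKM in Zn4 (1.58 ± 0.33, adjusted p = 0.0131), from 1 and 5 reads in WT. Its call ended without WT replicate 1 (adjusted p = 0.0703), WT replicate 2 (0.0724), Zn4 replicate 1 (0.0891) or Zn4 replicate 2 (0.0568). Pdgfb was at 1.47 and 2.99 RPKM in WT and 4.54 and 7.56 RPKM in Zn4 (1.13 ± 0.25, adjusted p = 0.0178) and was not called without WT replicate 1 (adjusted p = 0.113) or Zn4 replicate 2 (0.119). These were the 3 of 6 tested growth factors called higher, with none lower (none at an unadjusted p under 0.05 either, and none with limma-voom on reads). Tnfsf11, which encodes the osteoclast factor RANKL, was at 8.1 and 8.09 RPKM in WT and 104 and 107 RPKM in Zn4 (3.55 ± 0.26, adjusted p = 6.29e-05), with replicates that lie close together. Tnfsf4, the costimulatory ligand OX40L, was at 2.35 and 3.98 RPKM in WT and 10.1 and 10.5 RPKM in Zn4 (1.47 ± 0.24, adjusted p = 0.00355). In the other direction, the costimulatory receptor Cd27 was at 174 and 169 RPKM in WT and 121 and 119 RPKM in Zn4 (-0.51 ± 0.08, adjusted p = 0.00228) and Tnfrsf26 at 6.51 and 9.52 RPKM in WT and 2.71 and 3.57 RPKM in Zn4 (-1.11 ± 0.17, adjusted p = 0.00271). Over the family, 5 of 19 tested genes were called higher and 4 lower (median 0.39). The shares over all tested genes, for both lists, were 4.85% higher and 8.28% lower. Without WT replicate 2 the lower calls were 2, as without Zn4 replicate 1, and the higher calls were 3 without WT replicate 1 or Zn4 replicate 1.

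Few cytokine receptors were called in either direction. Of 24 tested cytokine receptors, 2 were called higher and 1 lower (median -0.16). These counts are near the shares over all tested genes, 4.85% higher and 8.28% lower. Il18r1, a receptor of effector and memory cells, was at 0.667 and 0.794 RPKM in WT and 3.54 and 4.03 RPKM in Zn4 (1.47 ± 0.19, adjusted p = 0.00106). Il2ra, the high-affinity chain for interleukin-2, was at 106 and 96.4 RPKM in WT and 146 and 148 RPKM in Zn4, higher in both Zn4 libraries but not called (0.54 ± 0.17, adjusted p = 0.0735). Il15ra was at 8.81 and 8.5 RPKM in WT and 18.7 and 17.1 RPKM in Zn4 (0.97 ± 0.18, adjusted p = 0.00787), not called without WT replicate 2 (adjusted p = 0.0591) or Zn4 replicate 1 (0.0686), and Il2rg, the chain that several interleukin receptors share, at 172 and 213 RPKM in WT and 138 and 145 RPKM in Zn4 (-0.44 ± 0.10, adjusted p = 0.0197), not called without WT replicate 2 (adjusted p = 0.145), Zn4 replicate 1 (0.14) or Zn4 replicate 2 (0.0623).

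Of 20 tested homing genes, 4 rose and 4 fell (median -0.20), against 4.85% and 8.28% of all tested genes. Cxcr3, which takes effector cells to inflamed tissue, was at 6.83 and 3.46 RPKM in WT and 35.9 and 38.1 RPKM in Zn4 (2.68 ± 0.24, adjusted p = 0.000172). Ccr8, the receptor for the Ccl1 product, was at 0.855 and 0.389 RPKM in WT and 8.64 and 8.26 RPKM in Zn4 (2.56 ± 0.24, adjusted p = 0.000209), so ligand and receptor were both higher. Itgb1, an integrin chain that binds matrix, was at 22.9 and 23.8 RPKM in WT and 60.7 and 60.6 RPKM in Zn4 (1.34 ± 0.07, adjusted p = 1.45e-05), with nearly equal replicates. The falls were Itgb7, S1pr1, Ccr9 and Itgal, and none of these calls held without WT replicate 2 or without Zn4 replicate 1. Itgb7, S1pr1 and Ccr9 were called without WT replicate 1 and Itgal was not (adjusted p = 0.16). S1pr1, the exit receptor of lymphoid organs, was at 7.12 and 8.87 RPKM in WT and 3.27 and 3.97 RPKM in Zn4 (-0.96 ± 0.17, adjusted p = 0.0056), and without WT replicate 2 its adjusted p was 0.0576, without Zn4 replicate 1 0.0581.

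Inhibitory receptors and ligands changed in both directions, 4 of 16 higher and 4 lower (median 0.14), against 4.85% and 8.28% of all tested genes. Lilrb4, an inhibitory receptor with tyrosine motifs in its tail, was at 5.88 and 8.84 RPKM in WT and 56 and 53.1 RPKM in Zn4 (2.75 ± 0.18, adjusted p = 3.29e-05). Havcr2, which encodes TIM-3, was at 0.439 and 0.242 RPKM in WT and 3.74 and 5.99 RPKM in Zn4 (2.11 ± 0.18, adjusted p = 0.00013). Lag3, which binds class II molecules, was at 51.6 and 33.7 RPKM in WT and 92.3 and 109 RPKM in Zn4 (1.25 ± 0.17, adjusted p = 0.00124), and the ligand Cd200 at 19.9 and 23 RPKM in WT and 49.9 and 43.2 RPKM in Zn4 (1.08 ± 0.11, adjusted p = 0.00032). Nt5e, the ecto-enzyme CD73 that makes adenosine, was at 4.87 and 4.09 RPKM in WT and 0.499 and 0.669 RPKM in Zn4 (-1.79 ± 0.16, adjusted p = 0.000172). Klrd1, the CD94 chain, was at 45.8 and 47.8 RPKM in WT and 20.1 and 18.7 RPKM in Zn4 (-1.23 ± 0.08, adjusted p = 3.13e-05), and Cd5, which damps receptor signals, at 537 and 637 RPKM in WT and 365 and 386 RPKM in Zn4 (-0.64 ± 0.09, adjusted p = 0.00199). Tigit, at 31.1 and 19.3 RPKM in WT and 8.6 and 8.79 RPKM in Zn4 (-1.4 ± 0.26, adjusted p = 0.00666), was not called without Zn4 replicate 1 (adjusted p = 0.0515). Pdcd1 and Ctla4 were not called.

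The T cell receptor machinery was lower in Zn4 cells in 16 of 35 tested genes and higher in 1 (median -0.39). Across all tested genes, 8.28% were called lower and 4.85% higher. Dgka, which consumes the messenger diacylglycerol, was at 79.3 and 94.7 RPKM in WT and 25.7 and 35.6 RPKM in Zn4 (log2 difference -1.49 ± 0.17, SE, adjusted p = 0.000598). Prkcq, the protein kinase C that diacylglycerol activates in T cells, was at 27.5 and 24.1 RPKM in WT and 11.4 and 12.1 RPKM in Zn4 (-1.07 ± 0.13, adjusted p = 0.000919). A brake and a forward component of the same step were therefore both lower. Cd3g, a subunit of the CD3 complex, was at 232 and 218 RPKM in WT and 104 and 110.4 RPKM in Zn4 (-1.07 ± 0.15, adjusted p = 0.00143), and Cd3d at 189.5 and 196 RPKM in WT and 111 and 127 RPKM in Zn4 (-0.69 ± 0.11, adjusted p = 0.00281). The costimulatory receptor Icos was at 32.2 and 27.4 RPKM in WT and 13.8 and 13.9 RPKM in Zn4 (-1.05 ± 0.14, adjusted p = 0.00124), and Csk, the kinase that restrains Lck, at 138 and 129 RPKM in WT and 82.6 and 88.9 RPKM in Zn4 (-0.63 ± 0.11, adjusted p = 0.0045). Cd247, the zeta chain, went the other way, at 13.9 and 13.6 RPKM in WT and 27.9 and 32.7 RPKM in Zn4 (1.08 ± 0.15, adjusted p = 0.00162). Most of the other falls were small, from -0.26 in Fyn (147 and 142 RPKM against 125 and 116 RPKM, adjusted p = 0.0419) to -1.0 in Cd28, and did not hold with every library left out: lower calls numbered 11 without WT replicate 1, 7 without WT replicate 2, 6 without Zn4 replicate 1 and 9 without Zn4 replicate 2. They numbered 10 with the Y-linked level as a covariate and 5 from the replicate 1 libraries alone.

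Among genes that answer receptor signals, some were called higher and some lower. Dusp5, a nuclear phosphatase of ERK, was at 25.1 and 19.5 RPKM in WT and 71.4 and 74.7 RPKM in Zn4 (1.68 ± 0.19, adjusted p = 0.000517), and Spry2, an inhibitor of the pathway, at 27 and 27.5 RPKM in WT and 69.6 and 55.2 RPKM in Zn4 (1.16 ± 0.11, adjusted p = 0.000205). Rasa1, a GTPase-activating protein of RAS, was at 16.8 and 19.9 RPKM in WT and 8.89 and 8.12 RPKM in Zn4 (-1.02 ± 0.10, adjusted p = 0.000246). With Spry4, 2 of 16 tested ERK feedback genes were lower and 2 higher (median 0.02), against 8.28% and 4.85% of all tested genes. Spry4 (-0.55 ± 0.12, adjusted p = 0.0146) was not called without WT replicate 2 (adjusted p = 0.128), Zn4 replicate 1 (0.0927) or Zn4 replicate 2 (0.0657). Targets of STAT5, which interleukin-2 activates, held 4 higher and 1 lower of 18 (median 0.27). The other 13, among them Socs1, Socs2, Socs3, Bcl2, Tfrc and Il2ra, were not called. Cish, a feedback inhibitor of that pathway, was at 5.36 and 3.9 RPKM in WT and 23.5 and 23.8 RPKM in Zn4 (2.14 ± 0.17, adjusted p = 9.13e-05). Bcl2l1, which encodes the survival protein BCL-XL, was at 23.5 and 22.9 RPKM in WT and 72.3 and 70.2 RPKM in Zn4 (1.58 ± 0.10, adjusted p = 3.29e-05), and the kinase gene Pim1 at 31.8 and 41.6 RPKM in WT and 86.5 and 92.9 RPKM in Zn4 (1.28 ± 0.21, adjusted p = 0.00406). Il2 itself was higher in the same libraries, and a link between it and these genes was not tested. Pim2, a related kinase, was lower (-0.79 ± 0.17, adjusted p = 0.0144) and was not called without WT replicate 2 (adjusted p = 0.117) or Zn4 replicate 1 (0.123).

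Among immediate-early, NFAT and NF-kB factors, 6 of 30 were called higher and 4 lower (median 0.37), against 4.85% and 8.28% of all tested genes. Tnfaip3, the NF-kB inhibitor A20, was at 13.4 and 14.3 RPKM in WT and 52.6 and 48.9 RPKM in Zn4 (1.8 ± 0.26, adjusted p = 0.00211), and Rel, the NF-kB subunit c-REL, at 54.3 and 49.9 RPKM in WT and 102 and 97.9 RPKM in Zn4 (0.93 ± 0.16, adjusted p = 0.00507). Nfkb2, Nfkbia and Nfkbib, a subunit and 2 inhibitors of NF-kB, were the other higher members beside Nr4a3. The NF-kB subunits and regulators Nfkb1, Rela, Relb, Nfkbid, Nfkbie, Nfkbiz and Bcl3 were tested and not called. Nfkbia was at 54.4 and 73.4 RPKM in WT and 147 and 155 RPKM in Zn4 (1.24 ± 0.24, adjusted p = 0.00897) and was not called without WT replicate 1 (adjusted p = 0.0706), Zn4 replicate 1 (0.0553) or Zn4 replicate 2 (0.0538). Nr4a3, an orphan receptor that T cell receptor signals induce, was at 50 and 43.3 RPKM in WT and 136 and 128 RPKM in Zn4 (1.48 ± 0.32, adjusted p = 0.0144) and was not called without WT replicate 1 (adjusted p = 0.0528), WT replicate 2 (0.105), Zn4 replicate 1 (0.097) or Zn4 replicate 2 (0.0607). The lower members were Egr1, Egr3, Jund and Nfatc2, and all 4 calls ended without WT replicate 2, without Zn4 replicate 1 and with the Y-linked level as a covariate. Higher calls numbered 2 without WT replicate 1, 5 without WT replicate 2, 2 without Zn4 replicate 1 and 2 without Zn4 replicate 2, and 0 from the replicate 1 libraries alone. Myc, which drives growth, was at 272 and 254 RPKM in WT and 366 and 366 RPKM in Zn4, higher in each Zn4 library but not called (0.48 ± 0.30, adjusted p = 0.386).

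Transcription factors of effector cells were called higher in 4 and lower in 1 of 18 cases (median 0.28). For all tested genes the shares were 4.85% higher and 8.28% lower. Zbtb32, a zinc finger repressor of activated lymphocytes, was at 18.4 and 11.7 RPKM in WT and 159.9 and 178 RPKM in Zn4 (log2 difference 3.44 ± 0.21, SE, adjusted p = 2.66e-05), among the 15 largest rises of all genes. Eomes, a T-box factor of killer and memory cells, was at 9.7 and 8.52 RPKM in WT and 36.1 and 44.9 RPKM in Zn4 (2.03 ± 0.36, adjusted p = 0.00522), and its largest adjusted p with 1 library of 12 h left out was 0.0465. From the replicate 1 libraries alone it was not called (0.171). Its relative Tbx21 was at 12.9 and 9.65 RPKM in WT and 6.13 and 8.86 RPKM in Zn4 and lower in both Zn4 libraries but not called (-0.54 ± 0.37, adjusted p = 0.423). Irf4 was nearly equal in all 4 libraries, at 257 and 263 RPKM in WT and 277 and 268 RPKM in Zn4 (0.07 ± 0.37, adjusted p = 0.945), and Prdm1 was low throughout, at 0.0075 and 0.0273 RPKM in WT and 0.0971 and 0.126 RPKM in Zn4 (0.13 ± 0.20, adjusted p = 0.767). Tox, a factor of exhausted and developing T cells, was at 2.91 and 3.03 RPKM in WT and 0.902 and 0.988 RPKM in Zn4 (-1.03 ± 0.14, adjusted p = 0.00135). Batf3 (0 and 0.0421 RPKM in WT and 0.399 and 1.63 RPKM in Zn4) and Zeb2 (1.7 and 1.33 RPKM in WT and 3.51 and 2.88 RPKM in Zn4) were the other higher calls. Batf3 was not called without WT replicate 1 (adjusted p = 0.158), WT replicate 2 (0.157) or Zn4 replicate 2 (0.17), and Zeb2 not without WT replicate 2 (adjusted p = 0.128) or Zn4 replicate 1 (0.13).

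Genes of the naive state fell in 7 of 27 cases and rose in 0 (median -0.30). All tested genes gave shares of 8.28% lower and 4.85% higher. At an unadjusted p under 0.05, 2 members were higher, and in limma-voom on reads 0 were. Id3, which keeps E proteins from DNA, was at 43.3 and 48 RPKM in WT and 10.1 and 12.1 RPKM in Zn4 (-1.95 ± 0.41, adjusted p = 0.0139). Its call ended without WT replicate 1 (adjusted p = 0.0586), WT replicate 2 (0.0935), Zn4 replicate 1 (0.103) or Zn4 replicate 2 (0.0516). Klf2, which switches on S1pr1, was at 19.8 and 22 RPKM in WT and 7.66 and 12.2 RPKM in Zn4 (-1.03 ± 0.26, adjusted p = 0.0291) and was not called without WT replicate 1 (adjusted p = 0.091), WT replicate 2 (0.163) or Zn4 replicate 1 (0.221). The groups do not overlap in either gene. With 1 library of 12 h left out the list kept fewer calls, and in some of these fits no call. In them the Id3 difference stayed between -2.07 and -1.83, and that of Klf2 ranged from -1.34 to -0.73. Tcf7 (133 and 161 RPKM in WT and 123 and 140.0 RPKM in Zn4, adjusted p = 0.513) and Il7r (4.35 and 6.55 RPKM in WT and 5.25 and 7.09 RPKM in Zn4, adjusted p = 0.782), markers of naive and memory cells, overlapped between the genotypes.

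Factors linked to other T cell lineages held 2 higher and 2 lower of 8, against 4.85% and 8.28% of all tested genes. Sox4 was at 1.18 and 1.61 RPKM in WT and 4.83 and 5.16 RPKM in Zn4 (1.33 ± 0.23, adjusted p = 0.00483), and Irf1, a target of interferon gamma, at 45.2 and 45.3 RPKM in WT and 16.4 and 19.5 RPKM in Zn4 (-1.29 ± 0.14, adjusted p = 0.000383). Irf1 was thus lower in cells whose Ifng RNA was higher. Ahr (0.314 and 0.301 RPKM in WT and 1.98 and 1.56 RPKM in Zn4, 1.08 ± 0.21, adjusted p = 0.00895) was not called without WT replicate 2 (adjusted p = 0.0609) or Zn4 replicate 1 (0.0822), and Bcl6 (3.28 and 4.67 RPKM in WT and 2.31 and 1.84 RPKM in Zn4, -0.68 ± 0.16, adjusted p = 0.019) not without WT replicate 2 (adjusted p = 0.151), Zn4 replicate 1 (0.0515) or Zn4 replicate 2 (0.121). Of 20 genes of the Ikaros family and NuRD, Mta3, a NuRD subunit, was the call, at 8.34 and 8.58 RPKM in WT and 3.57 and 4.64 RPKM in Zn4 (-0.90 ± 0.14, adjusted p = 0.00317). None was called higher (4 at an unadjusted p under 0.05, 1 in limma-voom on reads). Ikzf3, which encodes Aiolos, was at 31.7 and 25 RPKM in WT and 45.2 and 38.8 RPKM in Zn4 (0.56 ± 0.17, adjusted p = 0.0649). Ikzf2 was at 1.13 and 1.28 RPKM in WT and 2.4 and 2.41 RPKM in Zn4 (0.63 ± 0.28, adjusted p = 0.192), Ikzf4 at 2.39 and 3.05 RPKM in WT and 3.3 and 3.93 RPKM in Zn4 (0.31 ± 0.14, adjusted p = 0.19) and Ikzf5 at 2.42 and 2.85 RPKM in WT and 3.89 and 3.78 RPKM in Zn4 (0.41 ± 0.14, adjusted p = 0.0829). All 4 were higher in both Zn4 libraries and missed the threshold. Such separation is common, as 63.2% of all tested genes did not overlap between the genotypes. Of the 20 genes of this list, 5 lay higher and 9 lower in both Zn4 libraries (median -0.05). In the Notch pathway 2 of 7 were lower and 0 higher (0 at an unadjusted p under 0.05, 0 in limma-voom). Notch1 (-0.52 ± 0.14, adjusted p = 0.0402) was not called without WT replicate 1 (adjusted p = 0.154), WT replicate 2 (0.162), Zn4 replicate 1 (0.246) or Zn4 replicate 2 (0.0773), nor Dtx3 (-0.44 ± 0.12, adjusted p = 0.0377) without WT replicate 1 (adjusted p = 0.139), WT replicate 2 (0.166), Zn4 replicate 1 (0.253) or Zn4 replicate 2 (0.0549).

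Genes of the killing machinery were called higher in 7 and lower in 3 of 19 cases (median 0.44). Among all tested genes the shares were 4.85% higher and 8.28% lower. Nkg7, a granule membrane protein of killer cells, was at 286 and 199.7 RPKM in WT and 597 and 684 RPKM in Zn4 (1.41 ± 0.21, adjusted p = 0.00246). Serpinb6b, which inhibits proteases, was at 32.1 and 32 RPKM in WT and 99.8 and 134 RPKM in Zn4 (1.82 ± 0.29, adjusted p = 0.00351), and Fasl, the death ligand, at 10.9 and 10.3 RPKM in WT and 19.3 and 17.1 RPKM in Zn4 (0.72 ± 0.11, adjusted p = 0.00199). Gzmb, the main granzyme of activated CD8 T cells, was at 84.6 and 39.2 RPKM in WT and 199 and 214 RPKM in Zn4 (1.82 ± 0.36, adjusted p = 0.00985), where WT replicate 1 lies well above WT replicate 2. It was not called without WT replicate 2 (adjusted p = 0.0699), Zn4 replicate 1 (0.0595) or Zn4 replicate 2 (0.0567). Gzmc rested on an unequal pair in Zn4, at 1.5 and 1.31 RPKM in WT and 5.75 and 27.3 RPKM in Zn4 (2.52 ± 0.53, adjusted p = 0.0127), and was not called without WT replicate 1 (adjusted p = 0.0583) or WT replicate 2 (0.0841). Prf1, the pore-forming protein that delivers granzymes, was at 84.8 and 75 RPKM in WT and 105 and 112 RPKM in Zn4 and was not called (0.44 ± 0.34, adjusted p = 0.486). Unc13d, which primes granules for release, was lower, at 17.2 and 17.7 RPKM in WT and 5.5 and 6.82 RPKM in Zn4 (-1.37 ± 0.12, adjusted p = 0.000126), and so was the protease Ctsd, at 38.9 and 50.1 RPKM in WT and 17.6 and 23.3 RPKM in Zn4 (-1.09 ± 0.14, adjusted p = 0.000966). The higher calls numbered 4 without WT replicate 1, 4 without WT replicate 2, 5 without Zn4 replicate 1 and 4 without Zn4 replicate 2, and 0 from the replicate 1 libraries alone.

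The actin cortex is the filament layer under the membrane that T cells rebuild when they contact a target. Its list had more genes called lower than any other and was also the largest list. Over all tested genes, 8.28% were called lower and 4.85% higher. Of 46 tested genes, 24 were called lower and 1 higher, with a median difference of -0.37, and 39 of the 46 had a difference below 0. Cotl1, a coactosin that binds filaments, was at 321 and 356 RPKM in WT and 60.2 and 73.2 RPKM in Zn4, 5.07-fold lower in Zn4 (log2 difference -2.33 ± 0.16, SE, adjusted p = 5.24e-05). Coro1a, the coronin of blood cells, was at 259 and 292 RPKM in WT and 63.4 and 86.6 RPKM in Zn4 (log2 difference -1.88 ± 0.17, SE, adjusted p = 0.000205), and Evl, which extends filaments, at 47.2 and 49.1 RPKM in WT and 13.1 and 14.4 RPKM in Zn4 (-1.74 ± 0.16, adjusted p = 0.000171). In each of these genes both WT libraries lie far above both Zn4 libraries. Myh9, the heavy chain of non-muscle myosin, was at 163 and 163 RPKM in WT and 64.4 and 67.3 RPKM in Zn4 (-1.29 ± 0.14, adjusted p = 0.000371), and the filament cross-linker Flna at 50.5 and 60.6 RPKM in WT and 24.4 and 26.6 RPKM in Zn4 (-1.09 ± 0.11, adjusted p = 0.000301). Tmsb4x, which holds actin monomers, was at 991 and 1195 RPKM in WT and 554 and 594 RPKM in Zn4 (-0.92 ± 0.11, adjusted p = 0.000637). Actb was lower too, at 1249 and 1430.4 RPKM in WT and 684 and 756 RPKM in Zn4 (-0.89 ± 0.20, adjusted p = 0.0159), but was not called without WT replicate 2 (adjusted p = 0.122), Zn4 replicate 1 (0.119) or Zn4 replicate 2 (0.0528). Of the branching complex ARP2/3, Arpc1b fell by 0.66, Arpc2 by 0.48, Arpc5 by 0.49 and Arpc5l by 0.27 on the log2 scale. Its subunits Actr2 (-0.33 ± 0.10), Actr3 (-0.24 ± 0.08), Arpc3 (-0.12 ± 0.08) and Arpc4 (-0.25 ± 0.08) were not called. Arpc5l was not called without WT replicate 1 (adjusted p = 0.176), WT replicate 2 (0.199), Zn4 replicate 1 (0.161) or Zn4 replicate 2 (0.211). Cnn2, a calponin that lies outside the list, was at 102 and 107 RPKM in WT and 21.4 and 28.3 RPKM in Zn4 (log2 difference -2.05 ± 0.14, SE, adjusted p = 4.61e-05). The exception was Actn1, an alpha-actinin, at 27.2 and 32.7 RPKM in WT and 58.6 and 67.2 RPKM in Zn4 (1.05 ± 0.21, adjusted p = 0.0105), not called without WT replicate 1 (adjusted p = 0.0752) or Zn4 replicate 2 (0.0704). Lower calls numbered 18 without WT replicate 1, 15 without WT replicate 2, 16 without Zn4 replicate 1 and 19 without Zn4 replicate 2. They numbered 17 with the Y-linked level as a covariate and 9 from the replicate 1 libraries alone.

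Interferon-stimulated genes were lower in 16 and higher in 1 of 40 cases (median -0.40), although Ifng RNA was higher in the same cells. The shares of all tested genes were 8.28% lower and 4.85% higher. Gbp2, a guanylate-binding protein, was at 97 and 135 RPKM in WT and 25 and 33.4 RPKM in Zn4 (log2 difference -1.95 ± 0.25, SE, adjusted p = 0.000972), and Gbp4 at 30.5 and 37.4 RPKM in WT and 8.82 and 12 RPKM in Zn4 (-1.62 ± 0.23, adjusted p = 0.00162). The immunity-related GTPases moved with them: Irgm1 was at 22 and 22.1 RPKM in WT and 6.46 and 8.45 RPKM in Zn4 (-1.45 ± 0.21, adjusted p = 0.00194) and Igtp at 89.9 and 98.9 RPKM in WT and 35.7 and 46.6 RPKM in Zn4 (-1.19 ± 0.19, adjusted p = 0.00294). These families are known for their response to interferon gamma, and members with similar sequence can share reads. Ifi27l2a, which also answers type I interferon, was at 32 and 34.7 RPKM in WT and 8.6 and 13.8 RPKM in Zn4 (-1.53 ± 0.24, adjusted p = 0.00287). Ifih1, the RNA sensor MDA5, was the gene that rose, from 0.766 and 0.943 RPKM to 25.1 and 21.2 RPKM (log2 difference 3.7 ± 0.25, SE, adjusted p = 3.6e-05). Other type I genes, such as Isg15, Ifit1, Ifit3, Mx1 and Oas2, were not called. Lower calls numbered 14 without WT replicate 1, 10 without WT replicate 2, 9 without Zn4 replicate 1 and 14 without Zn4 replicate 2, and 11 with the Y-linked level as a covariate and 6 from the replicate 1 libraries alone.

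Of the metabolic genes that were called, most of those of sterol synthesis and glycolysis were lower, and those of amino acid supply were higher. As a base, 8.28% of all tested genes were called lower and 4.85% higher. Sterol and fatty acid synthesis held 9 lower and 0 higher of 27 (0 higher at an unadjusted p under 0.05 and in limma-voom), with a median of -0.43. Dhcr7, which catalyses the last step to cholesterol, was at 6.04 and 7.8 RPKM in WT and 1.91 and 2.7 RPKM in Zn4 (-1.26 ± 0.14, adjusted p = 0.00054). Fads1, a fatty acid desaturase, was at 7.14 and 8.79 RPKM in WT and 3.86 and 4.28 RPKM in Zn4 (-0.82 ± 0.12, adjusted p = 0.00177). The lower calls numbered 8 without WT replicate 1, 3 without WT replicate 2, 3 without Zn4 replicate 1 and 6 without Zn4 replicate 2, and 6 with the Y-linked level as a covariate and 2 from the replicate 1 libraries alone. In glycolysis and the hypoxia response 6 of 22 were lower and 2 higher (median -0.09). The enzymes Pfkm (2.85 and 3.34 RPKM in WT and 0.661 and 1.11 RPKM in Zn4, -1.13 ± 0.16, adjusted p = 0.00153) and Tpi1 (52.6 and 59.8 RPKM in WT and 22.4 and 30.7 RPKM in Zn4, -1.07 ± 0.17, adjusted p = 0.00347) kept their calls with each library of 12 h left out. The list's lower calls numbered 3 without WT replicate 1, 2 without WT replicate 2, 2 without Zn4 replicate 1 and 4 without Zn4 replicate 2. Egln3, an oxygen sensor, was at 1.24 and 0.675 RPKM in WT and 3.1 and 5.08 RPKM in Zn4 (1.37 ± 0.24, adjusted p = 0.00576) and was not called without WT replicate 2 (adjusted p = 0.058). Asns, which makes asparagine, was at 2.53 and 2.43 RPKM in WT and 13.2 and 10 RPKM in Zn4 (1.84 ± 0.17, adjusted p = 0.000209), and the arginine carrier Slc7a1 at 55.5 and 55.1 RPKM in WT and 96.5 and 92.8 RPKM in Zn4 (0.76 ± 0.12, adjusted p = 0.00373). With Chac1, they were the 3 of 25 amino acid genes called higher (median 0.10). Chac1 (0.478 and 0.494 RPKM in WT and 2.39 and 2.2 RPKM in Zn4, 1.15 ± 0.27, adjusted p = 0.0207) was not called without WT replicate 1 (adjusted p = 0.0917), WT replicate 2 (0.108), Zn4 replicate 1 (0.126) or Zn4 replicate 2 (0.0773).

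Growth and division genes showed few calls. Of 30 ribosome biogenesis genes, 28 had a positive difference but 1 was called, Rrp9 (86.1 and 80.4 RPKM in WT and 108 and 126 RPKM in Zn4, 0.48 ± 0.11, adjusted p = 0.0165), which was not called without WT replicate 1 (adjusted p = 0.0528), WT replicate 2 (0.127) or Zn4 replicate 2 (0.119). Of 36 genes of G1/S and DNA replication, Pole was called lower (5.23 and 5.27 RPKM in WT and 3.15 and 3.91 RPKM in Zn4, -0.47 ± 0.13, adjusted p = 0.0484), and not without WT replicate 1 (adjusted p = 0.16), WT replicate 2 (0.196), Zn4 replicate 1 (0.301) or Zn4 replicate 2 (0.0579). None of 30 mitotic genes was called in either direction by limma (0 higher and 3 lower at an unadjusted p under 0.05, 0 in limma-voom), and their summed level was 34.3 and 34.2 RPKM in WT and 23.2 and 31.0 RPKM in Zn4. These genes were low at 12 h in both genotypes. Of 22 survival and death genes 3 were higher, among them Bcl2l1 and Bcl2l2, and Bcl2l11 was lower (median 0.04). Shares over all tested genes were 4.85% higher and 8.28% lower. Bcl2l2 (0.821 and 1.7 RPKM in WT and 3.37 and 3.74 RPKM in Zn4, 1.04 ± 0.20, adjusted p = 0.00818) was not called without WT replicate 1 (adjusted p = 0.0508) or Zn4 replicate 2 (0.0533). Bcl2l11, which encodes the death protein BIM, was at 29.9 and 35.7 RPKM in WT and 19.5 and 19.9 RPKM in Zn4 (-0.70 ± 0.16, adjusted p = 0.0188) and was not called without WT replicate 2 (adjusted p = 0.15), Zn4 replicate 1 (0.115) or Zn4 replicate 2 (0.0777). Of 23 stress genes, 4 were higher: Sdf2l1, Hspa5, Pdia6 and Atf6. Other genes of the unfolded protein response, Hsp90b1, Xbp1, Atf4, Ddit3, Ern1, Calr, Pdia4, Dnajb9 and Herpud1, were tested and not called. Hspa5, the chaperone BiP, was at 345 and 340.4 RPKM in WT and 538 and 488 RPKM in Zn4 (0.58 ± 0.11, adjusted p = 0.00632) and was not called without WT replicate 2 (adjusted p = 0.0509) or Zn4 replicate 1 (0.0654). The higher calls numbered 1 without WT replicate 1, 2 without WT replicate 2, 0 without Zn4 replicate 1 and 3 without Zn4 replicate 2. Of 13 p53 targets, Sesn2 (4.54 and 5.96 RPKM in WT and 13.6 and 14.7 RPKM in Zn4, 1.28 ± 0.22, adjusted p = 0.00449), Cdkn1a and Perp were higher and Sesn1 (9.0 and 11.8 RPKM in WT and 4.27 and 5.0 RPKM in Zn4, -1.01 ± 0.16, adjusted p = 0.00274) lower. Cdkn1a, an inhibitor of cyclin-dependent kinases, was at 12.2 and 25.4 RPKM in WT and 48.5 and 51.6 RPKM in Zn4 (1.45 ± 0.34, adjusted p = 0.0222), with WT replicate 1 well under WT replicate 2, and was not called without WT replicate 1 (adjusted p = 0.133), Zn4 replicate 1 (0.108) or Zn4 replicate 2 (0.103). Perp (1.21 ± 0.31, adjusted p = 0.0321) was not called without WT replicate 1 (adjusted p = 0.132), WT replicate 2 (0.137), Zn4 replicate 1 (0.192) or Zn4 replicate 2 (0.0867).

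**Figure D3:**
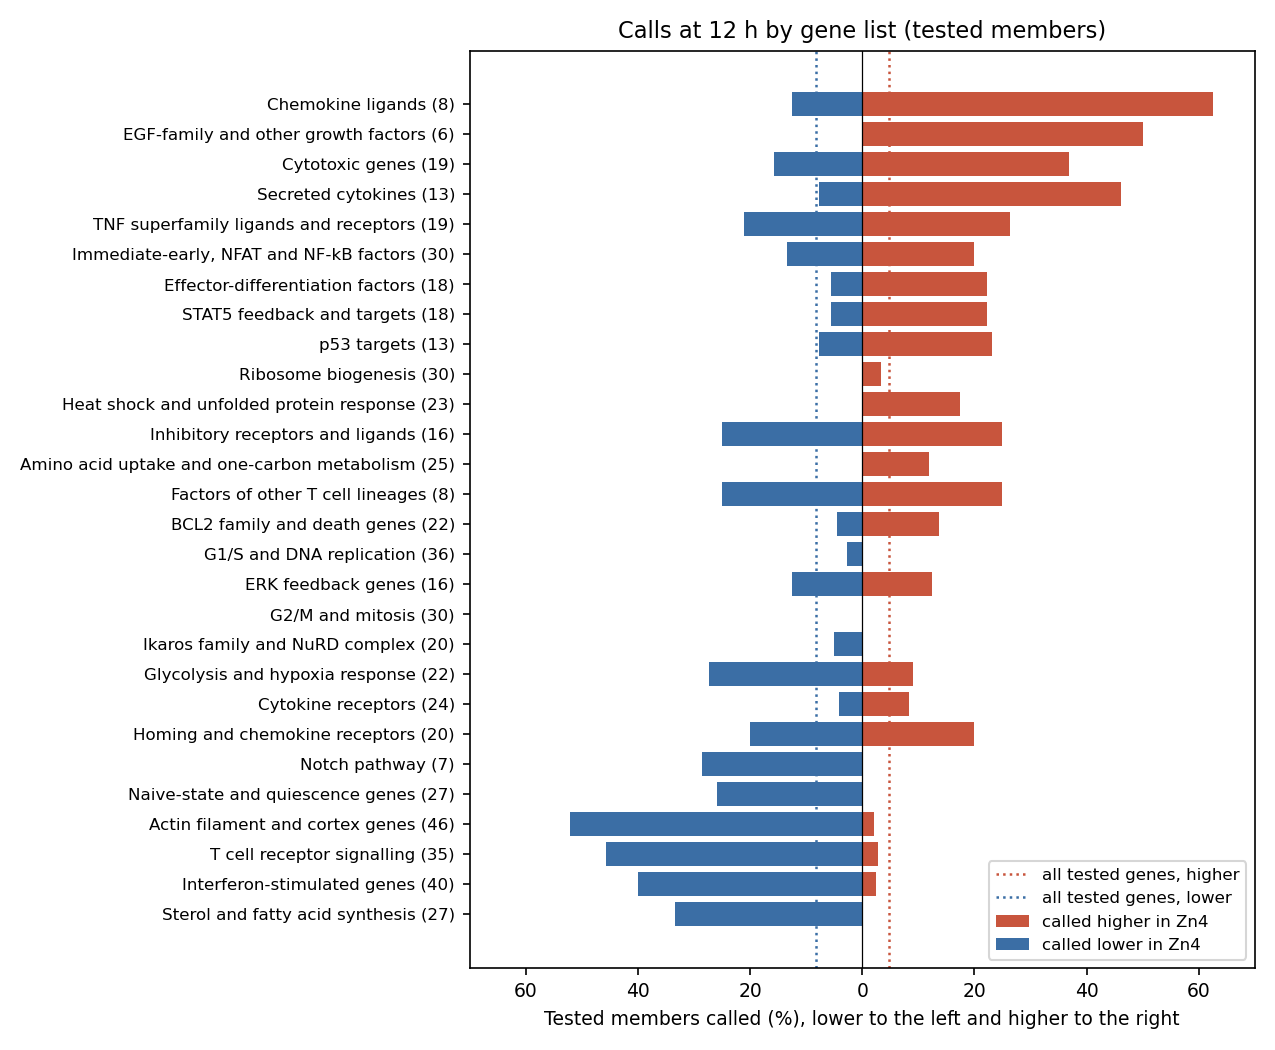
Percent of the tested members of each gene list called higher (red, to the right) or lower (blue, to the left) at 12 h, ordered by the list's median difference, with tested members in brackets. Dotted lines mark the shares over all tested genes, 4.85% higher and 8.28% lower; chemokines, growth factors and cytokines have the largest shares called higher, and actin, T cell receptor and interferon genes the largest shares called lower of the lists shown, which leave out lists of cell type markers.

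The largest differences outside these lists were also examined. Pcsk1, a protease that processes prohormones, was at 0.648 and 0.619 RPKM in WT and 26.4 and 31.7 RPKM in Zn4 (log2 difference 4.2 ± 0.36, SE, adjusted p = 0.000129). Axl, a receptor kinase that binds apoptotic cells through its ligand, was at 1.55 and 2.15 RPKM in WT and 35.4 and 40 RPKM in Zn4 (log2 difference 3.77 ± 0.13, SE, adjusted p = 7.36e-07). Trpm6, a magnesium channel, rose from 0.127 and 0.0598 RPKM on 20 and 13 reads to 12.4 and 14.1 RPKM (3.7 ± 0.12, adjusted p = 5.84e-07). In all 3 genes both Zn4 libraries lie far above both WT libraries. The remaining members of the 15 largest rises were Lgals7 (3.88 ± 0.22), Sdc4 (3.38 ± 0.31), Crabp2 (3.28 ± 0.18), which carries retinoic acid, and Mmp14 (3.09 ± 0.23), a membrane metalloprotease. Among the falls, Cd52, a small surface glycoprotein, was at 192 and 274 RPKM in WT and 47.9 and 53.5 RPKM in Zn4 (log2 difference -2.16 ± 0.20, SE, adjusted p = 0.000211). Folr4, a folate receptor homologue found on T cells, was at 32.2 and 34.1 RPKM in WT and 4.23 and 6.47 RPKM in Zn4 (-2.45 ± 0.28, adjusted p = 0.000621), and Ephx1, an epoxide hydrolase, at 33.3 and 32 RPKM in WT and 4.91 and 5.72 RPKM in Zn4 (-2.42 ± 0.28, adjusted p = 0.000647). In both genes each Zn4 library is far below each WT library. Samhd1, which degrades nucleotides, was at 28.2 and 29.2 RPKM in WT and 5.33 and 6.57 RPKM in Zn4 (-2.1 ± 0.15, adjusted p = 5.8e-05), and Neurl3 at 20.9 and 20.2 RPKM in WT and 3.86 and 4.5 RPKM in Zn4 (-2.06 ± 0.10, adjusted p = 5.48e-06). Lcn4 (-2.47 ± 0.28), Gm1966 (-2.32 ± 0.21), Tbc1d30 (-2.09 ± 0.37), Acsbg1 (-1.94 ± 0.22) and the gene model RP23-307A6.1 (-2.72 ± 0.41) completed the largest falls with Cotl1, Cnn2, Id3, Gbp2 and Coro1a.

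The cells carried the markers of CD8 T cells in both genotypes, although of 6 tested markers Cd3d, Cd3e and Cd3g were called lower and Cd247 higher. Cd8a was at 323 and 249 RPKM in WT and 219 and 214 RPKM in Zn4 (-0.39 ± 0.13, adjusted p = 0.078, not called) and Cd8b1 at 227 and 212 RPKM in WT and 199.9 and 197 RPKM in Zn4. Cd4 was at most 0.045 RPKM in any of the 4 libraries, and of 8 B cell markers Cd79b was the listed one, at 1.58 and 2.32 RPKM in WT and 0.298 and 0.609 RPKM in Zn4 (-1.02 ± 0.17, adjusted p = 0.00391). Myeloid markers, 2 listed of 13, summed to 3.20 and 3.69 RPKM in WT and 2.55 and 3.0 RPKM in Zn4. Markers of NK and gamma-delta T cells, 3 listed of 11, summed to 1.71 and 1.2 RPKM in WT and 1.32 and 2.94 RPKM in Zn4. Class II genes summed to 9.45 and 9.75 RPKM in WT and 17.4 and 17.3 RPKM in Zn4, of which Cd74, the invariant chain, made up 14.6 and 12.1 RPKM in Zn4 and 3.82 and 2.89 RPKM in WT (1.73 ± 0.29, adjusted p = 0.00396). Without Cd74 the sums were 5.63 and 6.86 RPKM in WT and 2.77 and 5.17 RPKM in Zn4. They were thus lower in both Zn4 libraries. None of the other 3 tested members was called. Markers that are not in the table are not analysed here. Their part in the differences was not tested, and in such bulk samples fewer cells of a type and less RNA per cell cannot be told apart. Cd44 (10.4 and 14.8 RPKM in WT and 9.16 and 8.96 RPKM in Zn4, adjusted p = 0.234) and Cd69 (109.7 and 126 RPKM in WT and 117 and 119 RPKM in Zn4, adjusted p = 0.996), which mark activated cells, were not called.

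Genes that WT cells themselves change on stimulation were defined from the libraries of 24 h against 0 h, which hold no library of 12 h. Of 3334 genes induced at least 2-fold, 192 were higher (5.76%) and 188 lower (5.64%) in Zn4 at 12 h. Of 1417 genes repressed at least 2-fold, 46 were higher (3.25%) and 216 lower (15.2%), and of the other 7975 genes 379 were higher (4.75%) and 650 lower (8.15%). Over all genes the shares were 4.85% and 8.28%. These counts fell with 1 library of 12 h left out. Without WT replicate 1, WT replicate 2, Zn4 replicate 1 and Zn4 replicate 2 in turn, induced genes called higher numbered 108, 121, 106 and 106. Those called lower numbered 118, 67, 64 and 134. Repressed genes called higher numbered 28, 24, 22 and 24 in the same order. Those called lower numbered 171, 110, 99 and 159. From the replicate 1 libraries alone the induced class held 75 higher and 34 lower, and the repressed class 6 higher and 76 lower.

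The differences at 12 h were set beside those at 0 h and 24 h, each against its own WT libraries. At 0 h, 728 genes were called (5.72%), and at 24 h 2464 (19.4%). Of the 617 genes higher at 12 h, 165 were also called higher at 0 h, which is 26.7% of the former and 34.4% of those at 0 h, and 432 at 24 h (70% and 36.1%). Of the 1054 genes lower at 12 h, 101 were also lower at 0 h (9.58% and 40.6%) and 646 at 24 h (61.3% and 50.9%). The change of the genotype difference from 0 h to 12 h was itself tested and called for 651 genes (5.12%), 455 of them toward lower values in Zn4. Without Zn4 12 h replicate 1 the count was 236, and from the replicate 1 libraries of 12 h it was 136. From 12 h to 24 h it was called for 100 genes (0.786%), which became 1 without WT 12 h replicate 2 and 450 without Zn4 24 h replicate 2.

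Several secreted factors had no called difference at rest, where their levels were near the floor. At 0 h the means in WT and Zn4 were 0.065 and 0.0304 RPKM for Il3. For Ifng they were 0.0993 ± 0.00321 RPKM (SD, n = 2) in WT and 0.421 ± 0.0309 RPKM in Zn4. The log2(RPKM + 1) scale keeps differences at such levels near 0, so these values do not show equal levels at rest. For Il3 the difference was -0.05 ± 0.20 at 0 h, and the increase to 7.11 ± 0.20 at 12 h passed its own test (adjusted p = 8.05e-06). At 24 h it was 7.05 ± 0.20. Ifng differed by 0.37 ± 0.20 at 0 h (adjusted p of the change to 12 h 4.36e-05) and by 3.67 ± 0.20 at 24 h, a smaller difference than at 12 h (adjusted p of that change 0.046). Its Zn4 mean was 472 RPKM at 12 h and 251 RPKM at 24 h, while the WT mean went from 11.5 to 18.6 RPKM. Csf2 grew from 1.71 ± 0.28 at 12 h to 4.96 ± 0.28 at 24 h (adjusted p = 0.0244). Xcl1 went the opposite way, from 1.22 ± 0.18 to 0.27 ± 0.18, where it was not called (adjusted p = 0.352), though the change itself did not pass (0.153). Other genes differed before stimulation. Pcsk1 (3.89 ± 0.36 at 0 h), Tnfsf11 (3.43 ± 0.26), Mmp14 (3.48 ± 0.23), Lilrb4 (3.28 ± 0.18) and Cxcr3 (2.93 ± 0.24) were called higher at rest too. For these 5 the change between 0 h and 12 h was not called (adjusted p from 0.314 to 0.914).

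Among the falls, some were already present at rest and others were not. Of the 15 largest, RP23-307A6.1 (-2.41 ± 0.41 at 0 h), Lcn4 (-1.99 ± 0.28), Folr4 (-1.35 ± 0.28), Ephx1 (-1.29 ± 0.28) and Acsbg1 (-1.23 ± 0.22) were also called lower at 0 h. Their change up to 12 h was not called (adjusted p from 0.159 to 0.849). Neurl3 was called lower at 0 h (-0.76 ± 0.10) and lower still at 12 h by the test of the change (adjusted p = 0.00164). The genes described were chosen for their differences at 12 h, which favours smaller differences at other times. Cotl1 differed by 0.10 ± 0.16 at 0 h and -1.35 ± 0.16 at 24 h. The change up to 12 h passed the test (adjusted p = 0.000914). The later one did not (0.106). In WT its level was 189 ± 20.3 RPKM (SD, n = 2) at rest and 373 ± 9.94 RPKM at 24 h, and in Zn4 202 ± 4.57 and 148 ± 38.4 RPKM. At 12 h the Zn4 libraries lay below their resting level and the WT libraries above theirs, a step over time that was not tested within a genotype. Flna was lower at 12 h and differed by 0.18 ± 0.11 at 24 h, and that change was called (adjusted p = 0.0244). So was that of Cnn2, from -2.05 ± 0.14 to -0.85 ± 0.14 (0.0389). In the actin list, 11 of 46 genes had a difference that was more negative at 12 h than at 0 h by its own test and 0 a more positive one. In the T cell receptor list these counts were 13 and 1 of 35, and in the interferon list 13 and 2 of 40. Gbp2 crossed from 1.09 ± 0.25 at rest to -1.95 ± 0.25 at 12 h (adjusted p of the change 0.00228), so Zn4 cells had more of it before stimulation and less after. At rest 6 of the 40 interferon genes were higher and 1 lower, with a median of 0.36 against -0.40 at 12 h. Klf2 was lower at 12 h and higher at 24 h (1.17 ± 0.26, adjusted p of the change 0.0389), and Cd44, not called at 12 h, was higher at 24 h (1.57 ± 0.20; 0.0279). Calls of a change after 12 h are few and depend on the processing: there were 0 with a pseudocount of 0.1.

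**Figure D4:**
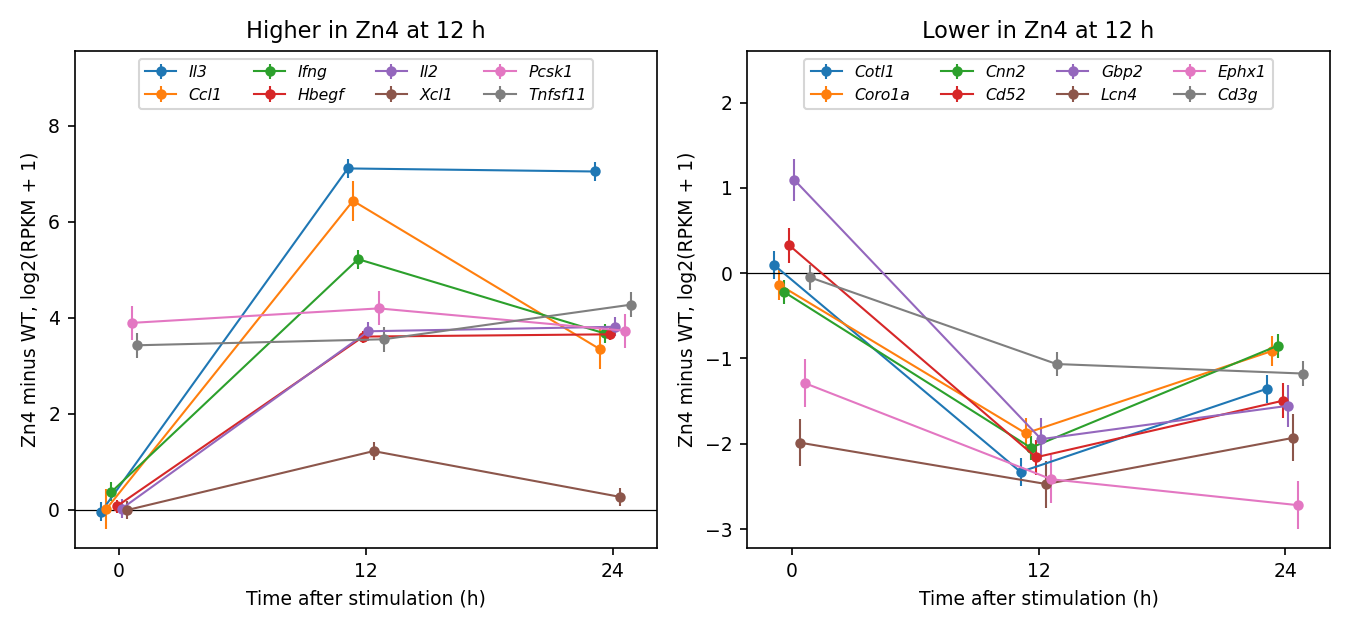
Genotype difference (Zn4 minus WT, log2(RPKM + 1), with the standard error of the fit) at 0, 12 and 24 h for 8 genes called higher at 12 h (left) and 8 called lower (right), with points shifted sideways for clarity. Il3, Ccl1, Ifng, Hbegf and Il2 start near 0, with means of at most 0.421 RPKM at 0 h. Pcsk1 and Tnfsf11 already differ at 0 h. Cotl1 goes from 0.10 at 0 h to -2.33 at 12 h.

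With 2 libraries a group, each library of 12 h was left out in turn, with the remaining library of that group assumed to vary like the others. As the WT and Zn4 libraries did not overlap in any called gene, no such fit could reverse a direction. The same holds for the replicate 1 libraries alone, so a shared direction is no check of the calls. Fits without 1 library of 12 h are also less precise, with a median SE of called genes 1.27 to 1.28 times that of the full fit. A call lost there does not show that the library left out carried it. The count of called genes was 1047 without WT replicate 1, 769 without WT replicate 2, 743 without Zn4 replicate 1 and 1105 without Zn4 replicate 2. In every one of these fits all 1671 genes had the direction reported, and 625 of them (37.4%), 264 higher and 361 lower, were called in all 4. With the Y-linked level as a covariate 971 genes were called, 413 higher and 558 lower. The replicate 1 libraries alone, both with Y-linked transcripts and almost no Xist, gave 461, 191 higher and 270 lower, on a spread taken from the other groups. In that pair the difference was 6.91 for Il3, 4.71 for Ifng, 5.81 for Ccl1, 3.63 for Hbegf and -2.4 for Cotl1, each called (adjusted p at most 0.00558). Xcl1, at 1.28, kept its size but not its call there (adjusted p = 0.069). Il3 ranged from 6.79 to 7.44 with 1 library left out, Ifng from 4.92 to 5.52 and Ccl1 from 6.04 to 6.84. Ccl3 moved more, from 1.75 without WT replicate 1 to 3.22 without WT replicate 2. Of the 98 named genes that were called, 71 were called in all 4 fits, 88 with the covariate and 59 from the replicate 1 libraries, where all 98 had the same direction.

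**Figure D5:**
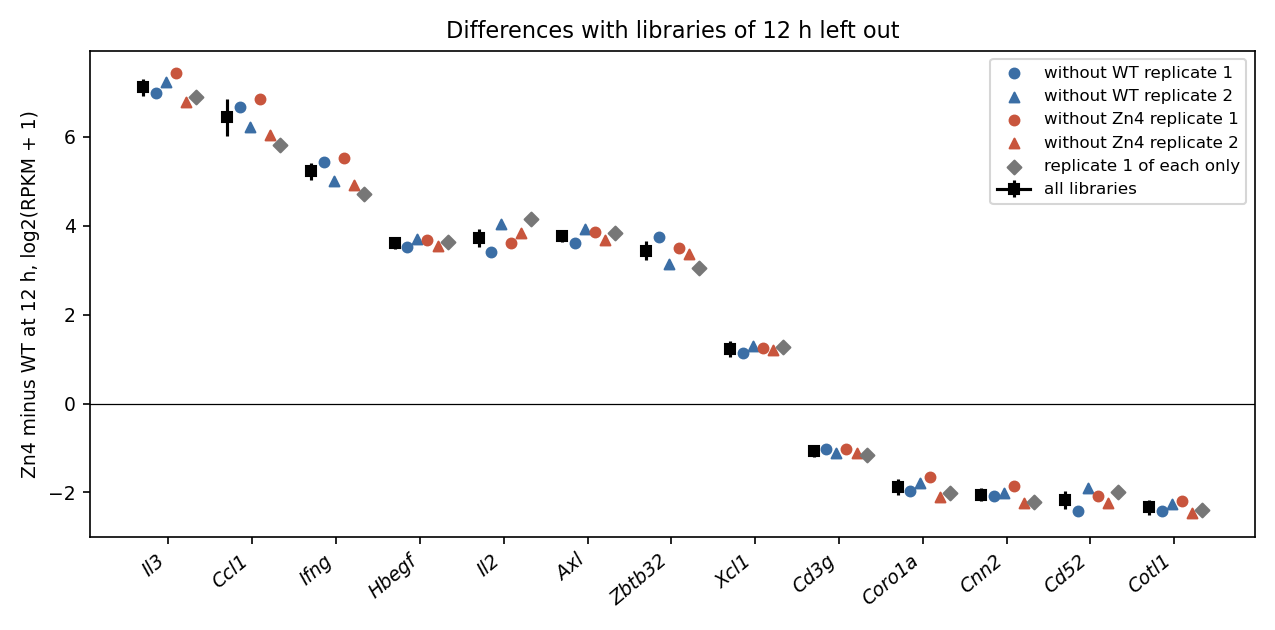
Genotype difference at 12 h (log2(RPKM + 1)) of 13 genes from all libraries (black squares, bars are the standard error of the fit), with each library of 12 h left out (coloured symbols) and from replicate 1 of each genotype (grey diamonds). Il3 lies between 6.79 and 7.44 with 1 library left out. The sign of each gene is the same in every fit, which is fixed because the libraries do not overlap.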

How the data were processed

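TopHat2 2.0.12 aligned the reads and HTSeq 0.6.1 assigned them to genes on mm10 (GRCm38), per the submitters' processing notes, and the authors deposited RPKM values on 12892 lines. Of 12885 symbols, 7 were repeated, and their later line was dropped. Whole reads, and from them depth, were computed from the steps between values for 12883 genes (tolerance 0.02 reads).

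The test was limma 3.58.1 (R 4.3.3; trended empirical Bayes) on log2(RPKM + 1), for 12726 genes that reach 1 RPKM in 2 libraries or more, with a mean per group over all 12 libraries (6 residual degrees of freedom) and Benjamini-Hochberg adjustment at 0.05. It was run on simulated reads with independent noise of equal size for all genes. That run does not test it under the sex-linked differences or shared deviations of these libraries. Lists are described by counts and medians, with no set test.

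The members, lists and gene rule were chosen with earlier results of these data known. The rule names 5 marker genes, the 15 largest rises and falls, 3 called genes per list and a fixed set; further list members, Cd8b1 and 2 families were named after their values were seen. Of 664 list genes 596 were tested; the others missed the filter or are not analysed here. Values of a few list members are counted but not reported by name here. Alternatives changed the pseudocount, filter, scaling, test, libraries, replicate block or sex covariate.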

Additional observations from a re-analysis of the deposited data

Results flagged for a closer look

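The genotype difference at 12 h was tested against that at 0 h and at 24 h for the 30 genes with the largest rises and falls, and genes whose difference changed with time are listed here as log2 values with their SE. Between 0 h and 12 h it became more positive for 11 genes: Il3 (7.16 ± 0.28), Ccl1 (6.43 ± 0.59), Ifng (4.85 ± 0.28), Il2 (3.7 ± 0.28), Hbegf (3.54 ± 0.18), Zbtb32 (3.39 ± 0.30), Trpm6 (3.35 ± 0.17), Crabp2 (3.06 ± 0.25), Ifih1 (2.98 ± 0.35), Axl (2.5 ± 0.18) and Lgals7 (1.89 ± 0.30). It became more negative for 8 genes: Gbp2 (-3.04 ± 0.35), Cd52 (-2.48 ± 0.29), Cotl1 (-2.43 ± 0.23), Cnn2 (-1.83 ± 0.20), Samhd1 (-1.77 ± 0.21), Coro1a (-1.74 ± 0.25), Gm1966 (-1.62 ± 0.29) and Neurl3 (-1.29 ± 0.14). Between 12 h and 24 h the difference changed for 4 genes and was nearer 0 at 24 h: Ifng (-1.55 ± 0.28) and Trpm6 (-1.22 ± 0.17) among the rises, and Cnn2 (1.2 ± 0.20) and Neurl3 (0.85 ± 0.14) among the falls. These 4 had adjusted p from 0.0276 to 0.046, and no gene passed that comparison with a pseudocount of 0.1. The genes were picked for their differences at 12 h, a choice that favours smaller differences at the other times. The log2(RPKM + 1) scale also shrinks differences near the floor, so a listed change need not be a change of the ratio. Lgals7 had means of 0.152 RPKM in WT and 3.66 RPKM in Zn4 at 0 h, and 1.26 and 31.7 RPKM at 12 h. Lgals7 (1.98 ± 0.22) and Axl (1.27 ± 0.13) were already called higher at 0 h.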

How the results depend on the processing

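Every one of the 1671 called genes had its reported direction in each alternative in which it was tested, except that the quantile-normalized value of Xcl1 was 0. Where libraries were left out the direction was fixed, because the libraries of 12 h did not overlap in these genes. Counts depended on the spread and on single libraries. With the replicate number as a block at each time (replicate block), 2644 genes were called, 1015 higher and 1629 lower, with 1319 for the change from 0 h and 216 for that to 24 h; with a block shared by all groups the last was 49. Samples with the same number deviated together at r = 0.192 at 12 h, 0.61 at 0 h and 0.0429 at 24 h, and the labels give no pairing. With the Y-linked level as a covariate the counts were 971 in all, 558 lower, 342 and 6. From the replicate 1 libraries they were 461, 191 higher, 270 lower, 136 and 0. Leaving out 1 library of the 12 gave 743 to 1834 calls, 326 to 696 higher, 417 to 1148 lower, 236 to 789 for the change from 0 h and 1 to 450 for that to 24 h. At least 2-fold differences numbered 871 with a pseudocount of 0.1 and 922 with limma-voom on reads, and 382 to 483 with 1 library left out. The change from 12 h to 24 h gave 0 calls with that pseudocount, 52 with quantile normalization and 43 with limma-voom. The cause of these changes was not tested. Depth limits genes with few WT reads, such as Il3, and 2 libraries a group limit all estimates of spread.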

Other observations

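Beyond the lists, a family chosen after its values were seen was lower in Zn4 cells at 12 h. The Gimap genes encode GTPases that support the survival of lymphocytes. Of 8 tested members, 7 were called lower and 0 higher (median log2 difference -1.2), against 8.28% lower and 4.85% higher over all genes. Gimap4 was at 114 and 119.5 RPKM in WT and 31.5 and 40 RPKM in Zn4 (-1.69 ± 0.18, adjusted p = 0.000425), and Gimap7 at 8.27 and 6.09 RPKM in WT and 1.18 and 1.46 RPKM in Zn4 (-1.81 ± 0.15, adjusted p = 9.91e-05). Gimap3 was at 186 and 179 RPKM in WT and 69.3 and 81.3 RPKM in Zn4 (-1.27 ± 0.19, adjusted p = 0.00212) and Gimap9 at 28 and 33.3 RPKM in WT and 10.6 and 12.9 RPKM in Zn4 (-1.31 ± 0.12, adjusted p = 0.000209). These 4 were called with each library of 12 h left out, while the calls of Gimap1, Gimap6 and Gimap8 ended in at least 1 of those fits. Gimap5 was at 39.9 and 35.8 RPKM in WT and 22 and 25.2 RPKM in Zn4 (-0.66 ± 0.21, adjusted p = 0.0686). The genes lie in a cluster and share sequence, so they are not independent.

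Semaphorin genes, picked in the same way, held 3 higher and 0 lower of 7 tested, against 4.85% and 8.28% over all genes. As both families were picked for their values, their counts are no test of the families. Sema4c was at 3.26 and 2.82 RPKM in WT and 29.6 and 35.5 RPKM in Zn4 (3.05 ± 0.18, adjusted p = 1.9e-05) and Sema7a at 40.4 and 42.2 RPKM in WT and 150.3 and 166 RPKM in Zn4 (1.91 ± 0.19, adjusted p = 0.00026). Sema6a was listed at 0 in both WT libraries and at 0.843 and 0.844 RPKM in Zn4. Over all genes, 146 were called higher and 75 lower at 0 h, 12 h and 24 h alike, and 162 higher and 359 lower at 12 h without a call at 0 h or 24 h. Whether these last differ between times was not tested by that count.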
